A study of Homo sapiens with 6 samples.

Results

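The genes described here are TBXA2R, which encodes the receptor for thromboxane A2, and 9 genes for making or sensing eicosanoids: TBXAS1, PTGS1, PTGS2, ALOX5, ALOX5AP, LTA4H, LTC4S, PTGER2 and PTGER4. TBXA2R was chosen by its measured fall in the comparison of protease-depleted clones with controls, where it was among the few genes past the test's threshold, and the other 9 were added by their place in the same pathway. The values of TBXA2R are therefore given as a description and without a test. All 10 genes were found in the table by the Ensembl identifier of their symbol, out of 18798 genes, and 8 of them had enough counts to be tested. The annotation (GENCODE, GRCh38) places PTGS1 on chromosome 9 (122370530 to 122395703), PTGS2 on chromosome 1 (186671791 to 186680427) and TBXAS1 on chromosome 7 (139777051 to 140020325). It places ALOX5 on chromosome 10 (45374176 to 45446119), ALOX5AP on chromosome 13 (30713478 to 30764426), LTA4H on chromosome 12 (96000828 to 96043520) and LTC4S on chromosome 5 (179793980 to 179796647), and the receptor genes PTGER2 on chromosome 14 (52314305 to 52328606) and PTGER4 on chromosome 5 (40679498 to 40693735).

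The data are RNA-seq counts from 6 libraries of U937, an established human monocytic cell line, grown under geneticin selection. The 3 Control libraries came from cell lines 1 to 3, each transduced with control plasmids. The 3 ΔNSPs libraries came from independent clones, transduced with Delta-NSPs plasmids, in which CTSG, ELANE and PRTN3, the genes of 3 neutrophil serine proteases, were depleted at the same time. Each ΔNSPs library is thus a single clone, a difference between groups includes whatever else sets these clones apart, and p-values measure the spread between these 6 libraries. How the plasmids deplete the genes is not given in the sources used here.

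Eicosanoids are signalling lipids made from arachidonic acid, which phospholipases release from membranes. Cyclooxygenases turn it into prostaglandin H2, from which thromboxane synthase makes thromboxane A2, an activator of platelets and smooth muscle that acts through a Gq- and G12/13-coupled receptor. On the other branch, lipoxygenase and its activating protein make leukotriene A4, which is then converted to leukotriene B4, an attractant of neutrophils, or to leukotriene C4. Monocytes and macrophages are known for making both kinds and for sensing prostaglandin E2 through the Gs-coupled receptors EP2 and EP4.

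Library totals lay between 11476619 and 13782854 counts, and 3 counts, the lowest number read here as a level, equal 0.214 to 0.26 CPM (the count scaled by the normalized library total). Mean CTSG, ELANE and PRTN3 levels in the clones were 4.09%, 2.12% and 12.8% of Control, and each clone lay below each Control library for all 3. Of 14797 genes tested with edgeR's quasi-likelihood test, 3 passed at a Benjamini-Hochberg adjusted p under 0.05. The number was 928 without clone 1, 20 without Control 1, 1 without clone 3 and 0 without Control 2 or Control 3. Of the 3 depleted genes, 1 passed in edgeR with all libraries and 3 passed without clone 1. DESeq2 called 2 of them and limma voom 1. A gene that does not pass in edgeR is thus not shown to be unchanged. Libraries also differed in a way that the groups do not follow: deviations from the group mean, correlated over genes, ran together in Control 1 with clones 2 and 3 (r = 0.26 and 0.22) and in clone 1 with Control 2 and 3 (r = 0.27 and 0.29), and against each other in the remaining pairs of a Control library with a clone (r from -0.43 to -0.14). The deviations of the 3 libraries of a group sum to 0 for each gene, so these correlations are tied to each other and are not separate findings. Of the monocytic markers, 9 of 9 were in the table, with a summed level of 1135 to 1192 CPM in Control and 982 to 1455 CPM in the clones, although CSF1R and CD68 averaged 1.77 and 0.679 CPM. Platelet and megakaryocyte markers summed to 1.79 to 2.25 CPM in Control and 1.01 to 3.94 CPM in the clones, with 3 of 8 in the table.

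The 250 bases upstream of the start of TBXA2R and of LTA4H are printed here because these were the 2 of the 10 genes with a lower level in every clone than in any Control library. Of all tested genes 11.7% were lower in this way, so it does not set LTA4H apart from the table at large. Starts are those of RefSeq (GRCh38.p14), at chr19:3606876-3607125 and chr12:96035588-96035837, both on the minus strand and written 5′ to 3′ in the direction of the gene. The LTA4H window lies within the span that GENCODE gives for the gene, whose start is annotated farther upstream there. Capitals mark matches, on either strand, to the GC box GGGCGG and to the PU.1 box core GAGGAA, which do not overlap each other.
TBXA2R: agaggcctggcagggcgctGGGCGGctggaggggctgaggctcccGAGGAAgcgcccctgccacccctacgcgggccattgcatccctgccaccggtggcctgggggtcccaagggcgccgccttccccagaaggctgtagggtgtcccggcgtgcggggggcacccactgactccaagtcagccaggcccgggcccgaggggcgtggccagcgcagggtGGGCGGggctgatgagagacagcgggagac
LTA4H: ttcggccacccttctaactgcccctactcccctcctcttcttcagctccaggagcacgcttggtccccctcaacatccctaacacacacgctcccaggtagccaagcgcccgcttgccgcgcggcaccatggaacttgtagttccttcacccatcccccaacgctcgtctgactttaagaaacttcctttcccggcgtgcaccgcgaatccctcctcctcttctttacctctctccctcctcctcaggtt
The TBXA2R window held 2 GC boxes, 1 PU.1 box core and 18 CpG dinucleotides, and the LTA4H window held 0, 0 and 14. Of 35116 RefSeq windows of this length, 42.6% held a GC box, 23.6% a PU.1 box core and 36.8% at least 18 CpG. These are matches of letters, and binding or methylation was not measured.

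TBXA2R transcripts were measured in each Control line and were at or under 3 counts in each clone. TBXA2R (ENSG00000006638) lies on the minus strand of chromosome 19 of GRCh38, positions 3594506 to 3606840. Its counts were 108, 200 and 207 in Control 1 to 3, or 9.19, 14.5 and 17.9 CPM. The clones had 3, 0 and 2 counts, or 0.214, 0 and 0.168 CPM. The groups did not overlap, and the lowest Control library stood far above each clone. Pooled over libraries, 5 counts in the clones against 515 in Control gave a level of 0.921% of Control, with an exact 95% interval of 0.298% to 2.16% that covers counting error only. In clone 1 the ratio was 1.54% (0.317% to 4.53%) and in clone 3 it was 1.21% (0.147% to 4.41%). Clone 2 had no count, for which the same exact interval reaches up to 2.02% of Control. That limit equals a level at least 49.5-fold lower than Control. Clone 2 would be 61.1-fold lower if it were set at 3 counts. In a bulk sample, a smaller share of cells with the transcript and less transcript in each cell cannot be told apart. The counts are per gene, so receptor isoforms are not separated.

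**Figure D1:**
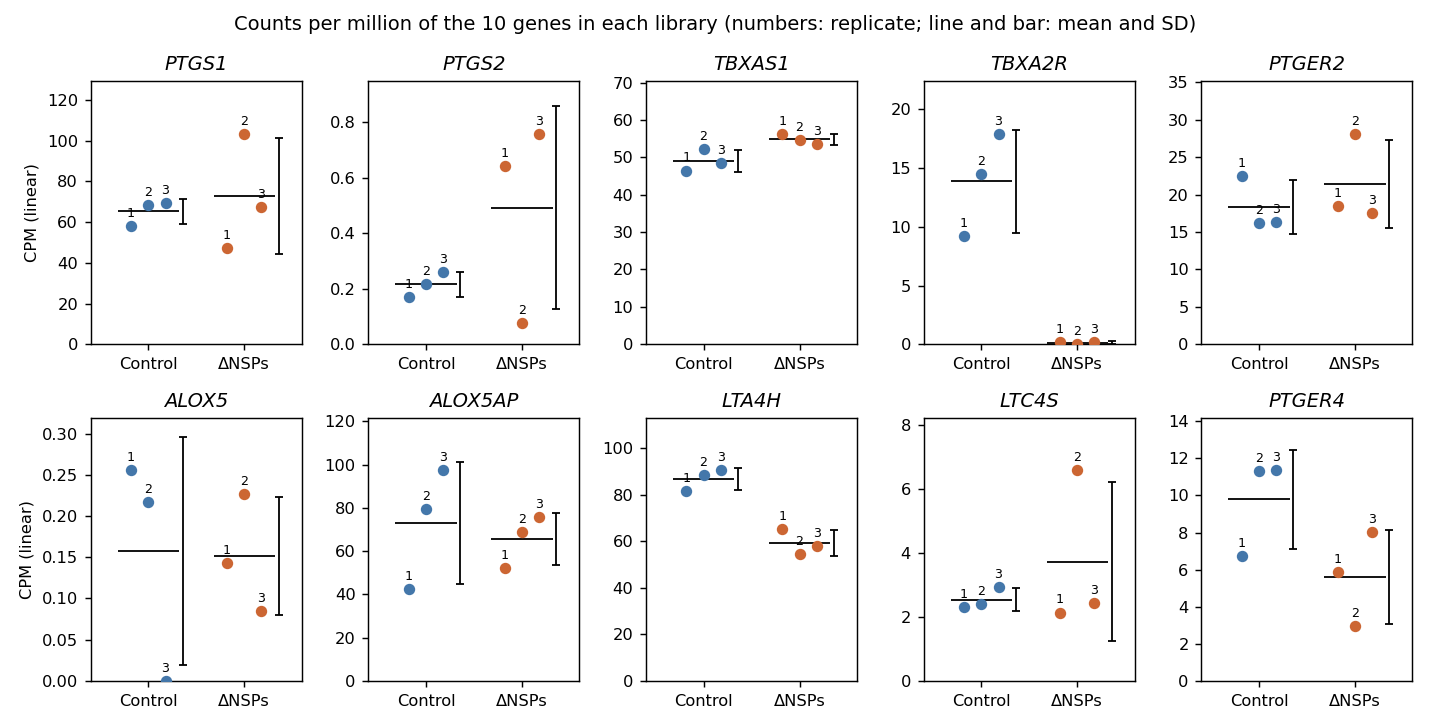
CPM on a linear axis from 0 for each of the 10 genes, with 1 point per library (blue Control, orange ΔNSPs; the number is the replicate), and the mean and SD of each group. TBXA2R is at 9.19 to 17.9 CPM in Control and at most 0.214 CPM in the clones, LTA4H is lower in all 3 clones with a narrower gap, and PTGS2 and ALOX5 stay below 1 CPM in every library.

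The genes nearest to TBXA2R were expressed in all 6 libraries. CACTIN-AS1, whose annotated start lies 407 bases from that of TBXA2R and which is transcribed the other way, was at 23.2, 21.6 and 20.6 CPM in Control and 20.2, 23.3 and 30.2 CPM in the clones. The coding gene next on that side, CACTIN, was at 42.6 ± 2.91 CPM in Control and 49.2 ± 7.77 CPM in the clones (mean ± SD, n = 3 per group, as below). HMG20B, the nearest tested gene on the other side by the end of the gene body, was at 99.2 ± 16.7 and 85.4 ± 18.4 CPM. The groups overlapped for each of the 10 nearest tested genes, 5 on either side, which also include FZR1, MFSD12, C19orf71, AC005786.3, PIP5K1C, APBA3 and AC005954.2. Their edgeR log2 fold changes (ΔNSPs minus Control) ran from -0.22 for HMG20B to 0.76 for C19orf71, with a median of 0.21. Of these, 9 were positive, where 7439 of all 14797 tested genes were. None of the 10 passed in edgeR, DESeq2 or limma voom, beside 0.0203%, 3.98% and 0.0135% of all genes. An unadjusted p under 0.05 was found for 1, beside 17.8% of all genes. Without overlap between the groups, 12.2% of all tested genes were higher and 11.7% lower in the clones. With 10 genes, counts of 0 or 1 do not set them apart from the table at large.

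ELANE and PRTN3, targets of the depletion, lie on the same chromosome arm, with 2.74 Mb between the end of ELANE and TBXA2R. The 98 tested genes in between had a median log2 fold change of 0.24, against 0.0023 over all tested genes. Of the 98, 76 had a positive value, where 7439 of all 14797 tested genes did. In that stretch 15 genes were higher and 5 lower in the clones without overlap between the groups, where 12.2% of all tested genes were higher and 11.7% lower in this way. None passed in edgeR or limma voom, 4 passed in DESeq2 and 21 had an unadjusted p under 0.05, beside 3.98% and 17.8% of all genes. The DESeq2 and unadjusted counts lie near these shares. The 5 genes lower without overlap are a smaller share of the 98 than the 11.7% of all tested genes. The median log2 ratio of all 98 genes to the Control mean was 0.013, 0.10 and 0.50 in clones 1, 2 and 3. In Control 1, 2 and 3 it was 0.17, -0.16 and -0.026. The stretch as a whole was thus highest in clone 3. Its lowest log2 fold change between the groups was -1.56, for TLE2, and its highest was 1.44, for SMIM24. Single clones went further. Log2 ratios to the Control mean in clones 1, 2 and 3 were -0.21, -3.21 and -2.36 for TLE2. They were -1.24, 0.23 and -2.17 for CFD, and -0.29, 2.56 and 0.18 for SMIM24.

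**Figure D2:**
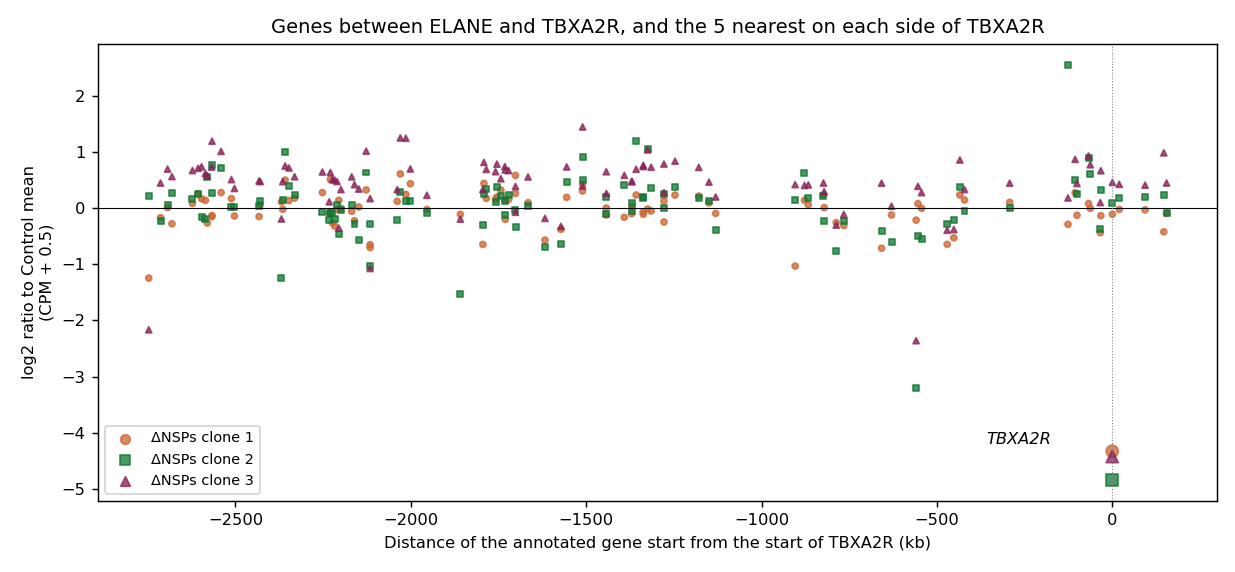
Each point is 1 gene in 1 clone: the x axis gives the distance of its annotated start from that of TBXA2R in kb, and the y axis the log2 ratio of its level to the Control mean (CPM plus a pseudocount of 0.5). The larger points at 0 kb are TBXA2R in clones 1 to 3, while its 10 nearest tested genes, with groups that overlap, lie between -0.5 and 1 on this axis.

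Genes for making thromboxane were expressed in both groups. PTGS1, the constitutive cyclooxygenase, was at 58.1, 68.5 and 69.3 CPM in Control and at 47.4, 103 and 67.5 CPM in the clones. Clone 2 was the highest library and clone 1 the lowest, so the clones enclosed the Control range (log2 fold change 0.16, SE 0.25; edgeR adjusted p = 0.776). Without clone 2 its log2 fold change was -0.19. TBXAS1, thromboxane synthase, was at 46.5, 52.2 and 48.3 CPM in Control and 56.3, 54.6 and 53.5 CPM in the clones. All 3 clones lay above the highest Control library by a small margin, and the difference did not pass (log2 fold change 0.16, SE 0.097; edgeR adjusted p = 0.411). PTGS2, the inducible cyclooxygenase, had 2, 3 and 3 counts in Control and 9, 1 and 9 counts in the clones. It stayed under 1 CPM in each library and was not tested.

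The leukotriene branch had its activating protein and its 2 converting enzymes, and its first enzyme near 0. ALOX5, the lipoxygenase that starts this branch, had 3, 3 and 0 counts in Control and 2, 3 and 1 in the clones, at or under the level of 3 counts throughout, and was not tested. ALOX5AP, which encodes the activating protein FLAP that presents arachidonic acid to the lipoxygenase, was at 42.3, 79.5 and 97.3 CPM in Control and 52.4, 69.0 and 75.5 CPM in the clones. The spread among Control lines was larger than the difference between groups (log2 fold change -0.15, SE 0.28; edgeR adjusted p = 0.803). Without Control 3 its log2 fold change was 0.10.

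LTA4H, the hydrolase that makes leukotriene B4, was lower in each clone. It was at 81.4, 88.5 and 90.4 CPM in Control and at 65.2, 54.3 and 57.9 CPM in the clones. The clone mean was 68.2% of Control (log2 fold change -0.55, SE 0.11). This passed in DESeq2 (adjusted p = 0.00611) and in edgeR without clone 1 (adjusted p = 0.0249), but not in edgeR with all 6 libraries (adjusted p = 0.16) or in limma voom (0.0798); the other alternatives gave up to 0.532. Exons of LTA4H overlap those of the antisense genes AC007298.1 and AC007298.2 by 121 and 582 bases, and the strand setting of the counting is not given in the sources used here. AC007298.1 was at 9.79, 13.11 and 14.04 CPM in Control and 10.05, 9.01 and 8.08 CPM in the clones. Clones 2 and 3 were thus below each Control library for AC007298.1, and clone 1 was above Control 1 only. AC007298.2 was under 2 CPM in all 6 libraries. Whether LTA4H shares reads with either antisense gene was not tested.

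LTC4S, which makes leukotriene C4, was low in 5 libraries and higher in clone 2. It was at 2.30, 2.39 and 2.95 CPM in Control and at 2.14, 6.58 and 2.44 CPM in the clones. The difference did not pass (edgeR log2 fold change 0.55, SE 0.45, adjusted p = 0.546), and without clone 2 the log2 fold change was -0.15.

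Both Gs-coupled receptors of prostaglandin E2 in the set were expressed, and neither passed a test between the groups. PTGER2, which encodes EP2, was at 22.6, 16.2 and 16.4 CPM in Control and 18.5, 28.2 and 17.5 CPM in the clones. Control 1 lay above 2 of the clones. The difference did not pass (edgeR log2 fold change 0.22, SE 0.23, adjusted p = 0.634), and without clone 2 its log2 fold change was -0.027. PTGER4, which encodes EP4, was at 6.72, 11.3 and 11.3 CPM in Control and at 5.85, 2.95 and 8.0 CPM in the clones. Clone 2 had the lowest value and the groups overlapped between Control 1 and clone 3 (log2 fold change -0.81, SE 0.37; edgeR adjusted p = 0.3). Its log2 fold change was -0.50 without clone 2 and -1.15 without clone 3.

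Beside TBXA2R, 0 of the 7 tested members passed in edgeR, where 0.0203% of all tested genes did, and 1 had an unadjusted p under 0.05, where 17.8% of all genes did. DESeq2 called 1 of the 7 (LTA4H) and 3.98% of its genes, and limma voom called 0 of the 7 and 0.0135% of its genes. Without clone 1, edgeR called 1 of the 7 (LTA4H) and 6.17% of its genes. In 1 gene each way the clones lay wholly above (TBXAS1) or below (LTA4H) Control, against the 12.2% and 11.7% of all genes given above. The 7 log2 fold changes ran from -0.81 to 0.55 with a median of 0.16, beside 0.0023 for all tested genes. With 7 genes, counts of 0 or 1 do not set them apart from the table at large.

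Per kilobase of annotated exon, in Control, ALOX5AP stood highest of the 10 genes at 42.6 ± 16.4 CPM per kb, followed by LTA4H (11.8 ± 0.639) and PTGS1 (11.3 ± 1.08). TBXAS1 (7.91 ± 0.474) and PTGER2 (7.42 ± 1.47) came next, then TBXA2R (4.97 ± 1.58), PTGER4 (2.47 ± 0.671) and LTC4S (2.13 ± 0.294). PTGS2 and ALOX5 were at 0.041 ± 0.0085 and 0.042 ± 0.037 CPM per kb. The ranges of LTA4H and PTGS1, of TBXAS1 and PTGER2, of PTGER4 and LTC4S, and of PTGS2 and ALOX5 overlapped, so these neighbours are not ordered. In the clones TBXA2R was at 0.046 ± 0.040 CPM per kb, within the range of PTGS2 and ALOX5. Lengths are of all annotated exons of a gene together, which may exceed those of the transcripts made in U937.

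Of 92 further genes of the pathway, in 7 lists by role, 70 were in the table and 62 were tested. A further 8 were in the table with too few counts to be tested, and 22 were not found in it. In edgeR 0 of the 62 passed, where 0.0203% of all tested genes did. An unadjusted p under 0.05 was found for 8, 5 higher and 3 lower, beside 17.8% of all genes. DESeq2 called 3 of the 58 it tested, ARRB2 higher and PLA2G6 and MGST3 lower, beside 3.98% of all genes, and limma voom called 0 of 62. Without clone 1 edgeR called 7, 2 higher and 5 lower, beside 6.17% of all genes. The groups did not overlap for 5 genes higher and 7 lower in the clones, beside 12.2% and 11.7% of all genes. The counts with all libraries lie near the shares of the whole table. The 7 called without clone 1 are a larger share of the 62 than 6.17%, which was not tested further. The median log2 fold change of the 62 was 0.029.

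**Figure D3:**
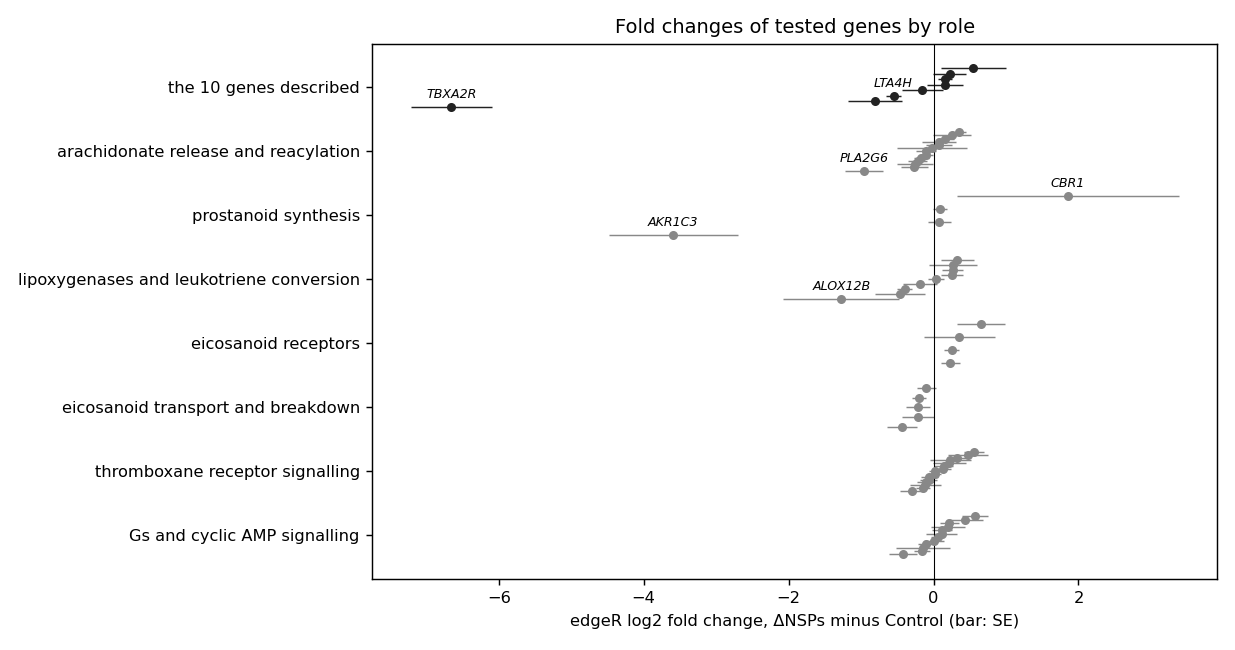
edgeR log2 fold changes (ΔNSPs minus Control, bars are SE) of the tested members (black, top row) and of the tested genes of the 7 further lists (grey), 1 row per role. TBXA2R, at a fitted -6.66 that depends on how counts near 0 are treated, lies apart from the other members, which run from -0.81 to 0.55, and AKR1C3 (-3.60) and CBR1 (1.85) have the widest changes of the further lists.

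Among genes that free arachidonic acid or return it to membranes, 13 of 17 were tested and 0 passed in edgeR, with a median log2 fold change of -0.10. PLA2G6, a calcium-independent phospholipase A2, was at 11.7, 15.2 and 16.0 CPM in Control and 10.1, 6.28 and 5.56 CPM in the clones (log2 fold change -0.96, SE 0.26). It passed in DESeq2 (adjusted p = 0.0259) and in edgeR without clone 1 (0.0254), but not in edgeR with all libraries (0.178). Its exons overlap those of the antisense gene AL022322.2 by 1518 bases. AL022322.2 was at 3.49, 4.49 and 5.98 CPM in Control and 3.42, 1.74 and 1.77 CPM in the clones, also lower in each clone. Whether the 2 genes share reads was not tested. MBOAT7, which returns arachidonic acid to phosphatidylinositol and was the highest of this list in CPM, was at 116 ± 4.13 CPM in Control and 148 ± 7.14 CPM in the clones (edgeR adjusted p = 0.176). MGLL, which releases arachidonic acid from 2-arachidonoylglycerol, was at 102 ± 4.78 and 90.9 ± 7.33 CPM (edgeR adjusted p = 0.411).

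Of the other prostanoid synthesis genes, 4 of 9 were tested and 0 passed in edgeR. PTGES3, a co-chaperone that also acts as a prostaglandin E synthase, was the highest at 459 ± 32.1 CPM in Control and 490.1 ± 15.8 CPM in the clones (edgeR adjusted p = 0.632). Of the lipoxygenase and leukotriene conversion genes, 9 of 13 were tested and 0 passed in edgeR, with a median of 0.036. MGST3, a microsomal glutathione transferase related to LTC4S, was at 126, 126 and 127 CPM in Control and 101, 99.8 and 85.6 CPM in the clones (log2 fold change -0.40, SE 0.10; DESeq2 adjusted p = 0.0462, edgeR adjusted p = 0.172). COTL1, which binds the lipoxygenase ALOX5, was at 283 ± 10.9 and 339 ± 67.9 CPM, with clone 1 below and clones 2 and 3 above the Control lines.

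The other eicosanoid receptor genes held 4 tested of 11, and 0 passed in edgeR. All 4 had a positive log2 fold change, where 7439 of all 14797 tested genes did. PTGDR2 and PTGIR, at few counts and not tested, went the other way, with clone means of 56.1% and 8.45% of Control. LTB4R, which encodes the high-affinity receptor of leukotriene B4, was at 67.1, 70.3 and 77.2 CPM in Control and 88.0, 79.2 and 88.6 CPM in the clones, which did not pass (edgeR log2 fold change 0.25, SE 0.10, adjusted p = 0.263). LTB4R2, the gene of the low-affinity receptor, was at 28.9 ± 3.75 and 34.0 ± 1.14 CPM (edgeR adjusted p = 0.372). Both are uncertain, since their exons overlap by 355 bases and those of LTB4R2 also overlap CIDEB and NOP9. In the list of transport and breakdown, 5 of 11 were tested and 0 passed in edgeR. All 5 had a negative log2 fold change, with a median of -0.21, where 7358 of all 14797 tested genes were negative. ABCC1, an exporter of leukotriene C4, was at 77.9 ± 1.06 CPM in Control and 67.8 ± 5.79 CPM in the clones (edgeR adjusted p = 0.338). ABCC4, an exporter of prostaglandins, was at 88.3, 85.9 and 67.1 CPM in Control and 68.3, 76.1 and 80.5 CPM in the clones, and the groups overlapped.

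Of 17 signalling genes downstream of the thromboxane receptor 15 were tested, 0 passed in edgeR, and the median log2 fold change was 0.023. RHOA, the small GTPase that G12/13 signalling activates, was at 808 ± 3.82 CPM in Control and 819 ± 27.8 CPM in the clones (log2 fold change 0.019, SE 0.086). GNA11, a Gq-class alpha subunit, had 1, 4 and 0 counts in Control and 3, 1 and 1 in the clones and was not tested, while GNAQ was at 57.0 to 78.5 CPM over the 6 libraries. ARRB2, a beta-arrestin that binds activated receptors, was at 209, 153 and 181 CPM in Control and 238, 290 and 272 CPM in the clones (log2 fold change 0.56, SE 0.14). It passed in DESeq2 (adjusted p = 0.0192) and in edgeR without clone 1 (0.044), but not in edgeR with all libraries (0.171). PLCB3, a phospholipase C driven by Gq, was at 72.8 ± 5.95 and 65.8 ± 1.03 CPM (edgeR adjusted p = 0.467). In the Gs and cyclic AMP list 12 of 14 were tested and 0 passed in edgeR, with a median of 0.083. CREM, a transcription factor responsive to cyclic AMP, was at 10.6, 10.1 and 9.10 CPM in Control and 17.3, 12.3 and 14.7 CPM in the clones, which did not pass (edgeR log2 fold change 0.57, SE 0.18, adjusted p = 0.197). GNAS, the Gs alpha subunit, was at 580.0 ± 47.5 CPM in Control and ranged from 446 CPM in clone 1 to 842 CPM in clone 2. Exons of RHOA, CREM and GNAS also overlap those of a gene on the other strand, by 214, 205 and up to 1127 bases.

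**Figure D4:**
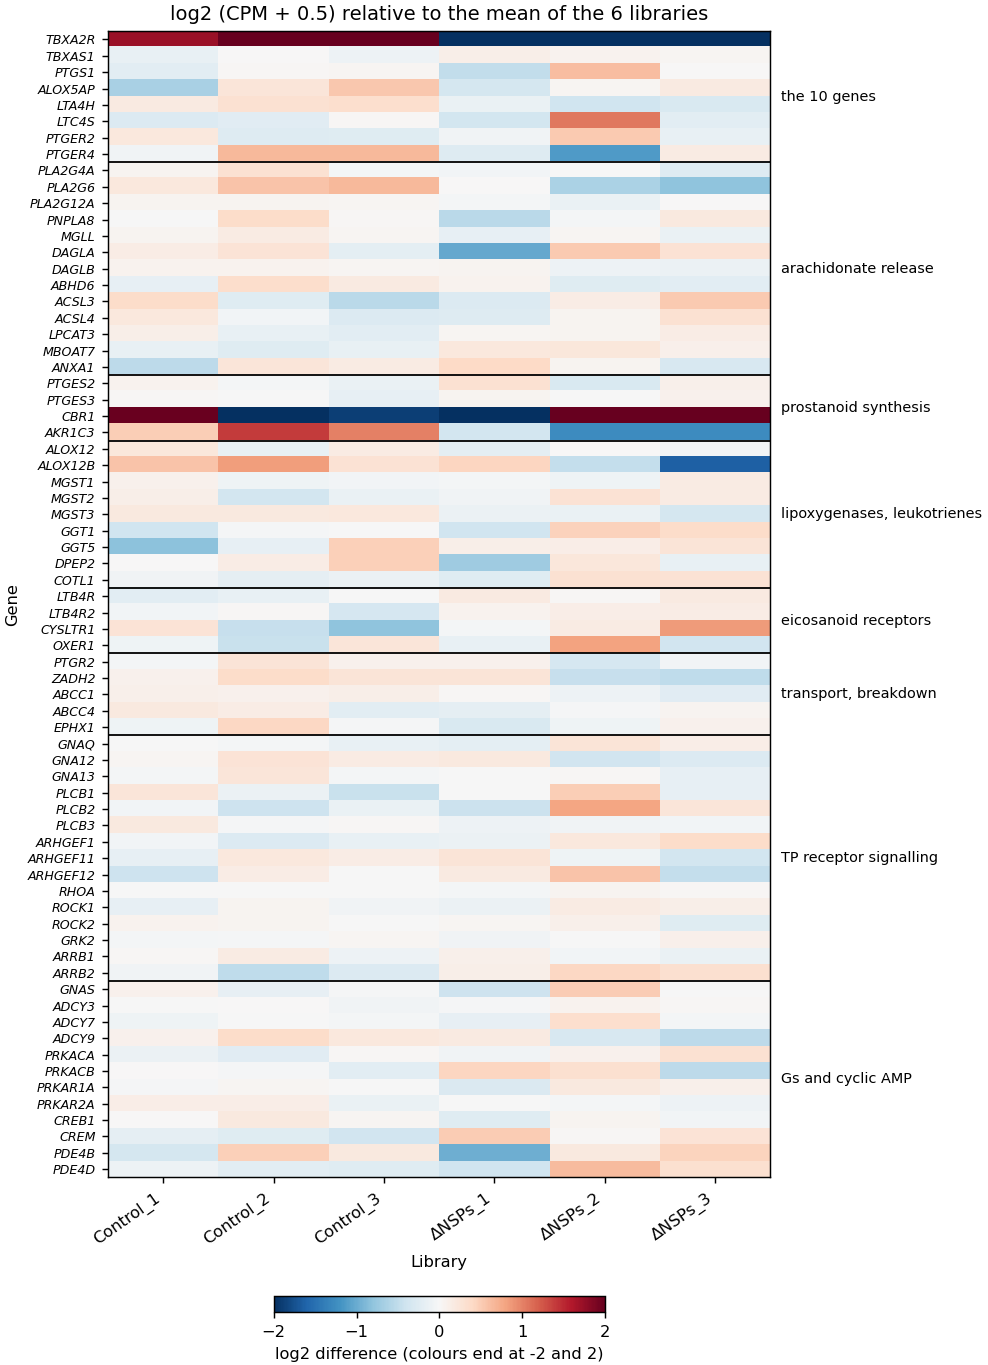
Each row is a tested gene and each column a library; colour gives log2 (CPM + 0.5) relative to the gene's mean over the 6 libraries, and black lines part the members from the 7 further lists. TBXA2R is red in the 3 Control columns and blue in the 3 clones, while CBR1 is red in Control 1 and clones 2 and 3 and blue in the other 3 libraries.

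The 5 coding genes whose log2 level over the 6 libraries was most like that of TBXA2R, of 10753 with a mean of at least 2 CPM, were ZNF619, FBXO46, KBTBD6, HIVEP2 and S100PBP, with Pearson's r of 0.986 to 0.993. This measure ignores the size of a change, and 122 genes had an r over 0.95. ZNF619 was at 12.8, 13.3 and 13.4 CPM in Control and 8.06, 8.17 and 8.59 CPM in the clones, 62.8% of Control. HIVEP2 was at 66.1% of its Control level, and FBXO46, KBTBD6 and S100PBP at 78.9%, 80.5% and 83.6%. None of the 5 came near the depth of the TBXA2R difference. As they were chosen for this pattern, their values are a description, with no test.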

How the data were processed

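RNA was sequenced from 3 Control and 3 ΔNSPs libraries of U937. The authors deposited raw counts per Ensembl gene; the submitters' processing notes name HTSeq 0.11.1, HISAT2 2.0.0, SAMtools 1.5.9 and FastQC, with build GRCh38.p12. The annotation, strandedness and filters of the counting were not given in the sources used here. Symbols, positions and exon lengths came from GENCODE 29 by Ensembl identifier (18771 of 18798 genes matched), and every listed gene has at least 10 counts in sum. Genes were tested chiefly in edgeR 4.0.16 under R 4.3.3, with TMM, filterByExpr, quasi-likelihood, two-sided, group as the factor, Benjamini-Hochberg over 14797 genes. DESeq2 1.42.0 (adjusting over 12944 genes) and limma 3.58.1 (voom) were alternatives, and all 3 were tested on simulated data. CPM is counts over the TMM-scaled total, and errors are SD over 3 libraries. The SE of a log2 fold change was derived from the test statistic. Members and lists were chosen with earlier results of these data known. Named were all members; up to 3 genes per list past the edgeR threshold, then up to 3 without overlap and with a mean of at least 2 CPM; the highest gene of each list; the 5 nearest genes on each side of TBXA2R; and the 5 most like it. DESeq2's calls and genes of the closing section were named after their values were seen. Of mast cell and basophil markers 4 of 7 were in the table, with a summed level of 42.0 to 71.7 CPM in Control and 32.8 to 39.6 CPM in ΔNSPs, nearly all from TPSAB1; of lymphoid markers 3 of 6, at 14.3 to 17.8 and 17.3 to 25.6 CPM. Whether either bears on the members was not tested.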

Additional observations from a re-analysis of the deposited data

How the results depend on the processing

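The count of edgeR calls over all genes was 3, and it was 515 in DESeq2, 0 with the replicate block and 0 to 928 when single libraries were left out (928 without ΔNSPs clone 1, 20 without Control 1, 2 and 1 without clones 2 and 3, 0 without Control 2 or Control 3). At an unadjusted p under 0.05 the replicate block gave 1779 genes, and leaving out Control 2 or Control 3 gave 1408 or 1413. Among the 10 members, with TBXA2R chosen for its call so that these counts support nothing about it, the count was 1, against 2 in DESeq2, 0 in limma voom, 0 with the replicate block and 0 to 2 without single libraries (0 without Control 2, Control 3 or clone 3). In the further lists it was 0, against 3 in DESeq2 and 0 to 7 without single libraries, the 7 being without clone 1. Replicate numbers did not pair the libraries: deviations of same-numbered libraries correlated at -0.43, -0.16 and -0.14. Signs turned for PTGS1 (-0.19), LTC4S (-0.15) and PTGER2 (-0.027) without clone 2 and for ALOX5AP (0.10) without Control 3, none of them past a threshold; without single libraries these ranged from -0.19 to 0.38 for PTGS1, -0.15 to 0.82 for LTC4S, -0.027 to 0.39 for PTGER2 and -0.43 to 0.10 for ALOX5AP. PTGER4 ran from -1.15 to -0.50. The log2 fold change of TBXA2R ran from -7.28 to -6.10, and that of LTA4H from -0.64 to -0.49. With a pseudocount of 2 CPM, 2 of the 5 genes most like TBXA2R were again among the first 5, and with Spearman's rho 107 genes tied at 1, with 0 of the 5 among them. The cause of these changes was not tested. Genes at a few counts, ALOX5 and PTGS2 among them, could not be compared at this depth.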

Other observations

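The genes named here were picked after their values were seen. CBR1, a carbonyl reductase that can convert prostaglandin E2, was at 19.2 CPM in Control 1 and at 37.3 and 36.2 CPM in clones 2 and 3, against 0.362 and 0.866 CPM in Control 2 and 3 and 0 counts in clone 1. Its log2 fold change between the groups was 1.85 (edgeR adjusted p = 0.549). SETD4, whose annotated span encloses CBR1 on chromosome 21, was at 15.2 CPM in Control 1 and 16.8 CPM in clones 2 and 3. In Control 2, Control 3 and clone 1 SETD4 was at 12.6, 11.3 and 11.4 CPM, so it leaned the same way by a narrower margin. AP000688.1, on the other strand and sharing 464 exon bases with CBR1, was at 11.6 CPM in Control 1 and 21.0 and 20.8 CPM in clones 2 and 3, and under 1 CPM in the other libraries. CBR1 thus followed the same division of libraries as the correlations of deviations, Control 1 with clones 2 and 3.

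AKR1C3, a prostaglandin F synthase, had 14, 37 and 22 counts in Control and 6, 0 and 0 in the clones (edgeR adjusted p = 0.171). Genes of its family have near-identical sequences, so its counts are uncertain. PTGIR, the prostacyclin receptor gene and a relative of TBXA2R, had 1, 17 and 14 counts in Control and 3, 0 and 0 in the clones. It was not tested, and Control 1 lay within the range of the clones. The calls that edgeR gave for the further lists without clone 1 were PLA2G6, AKR1C3, ZADH2, GNA12 and ADCY9, lower, and ARRB2 and PDE4D, higher.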
